A study of Homo sapiens with 4 samples.

Results

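The EGFR family comprises receptor tyrosine kinases and the EGF-like ligands that bind them, and 10 of its genes were followed here in lung adenocarcinoma cells with silenced TAZ. The ligand genes were EREG, TGFA, HBEGF, BTC, EPGN and NRG1, and the receptor genes were EGFR, ERBB2, ERBB3 and ERBB4. They were taken by name, 10 of the 18377 genes that the platform annotation names by a single symbol, and each was read from its own probe set. A549 and H441 are established human lung adenocarcinoma lines. Both were transfected either with siNTC, the control siRNA, or with siTAZ, which is aimed at the co-activator TAZ (gene WWTR1), and total RNA was taken 48 h later. Each of the 4 combinations was measured on 1 Affymetrix whole-transcript array, so no group had a replicate. AREG, the ligand gene beside EREG, was not analysed here.

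Ligands of this family are made as membrane-bound precursors that cell-surface proteases release. Bound receptors form dimers, phosphorylate each other and signal through the RAS-MAPK and PI3K-AKT chains. EREG, TGFA, HBEGF, BTC and EPGN encode ligands of EGFR, some of which also bind ERBB4, while NRG1 encodes a neuregulin that binds ERBB3 and ERBB4. ERBB2 has no known ligand of its own and ERBB3 has little kinase activity, so both act mainly as partners. In lung adenocarcinoma EGFR is a known driver and drug target, and TAZ acts in the nucleus mainly through TEAD transcription factors.

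Values are log2 signals, and differences are siTAZ minus siNTC on that scale unless another contrast is named. A gene was called dim on an array when its signal was below the median of the whole table, 6.13. The table holds no detection calls, so whether a dim signal was above background is unknown. Differences of dim probe sets may thus be understated or be background alone. WWTR1 was 10.04 (siNTC) and 7.64 (siTAZ) in A549, and 9.61 and 7.47 in H441, so the targeted transcript was lower in both lines under its label. Array medians ran from 6.05 to 6.25. All 6 epithelial markers checked were at or above the table median on every array. Of 6 lung lineage markers, 2 reached the median on the A549 siNTC array, 1 on the A549 siTAZ array and 5 on each H441 array. NKX2-1, SFTPB, NAPSA and SLC34A2 were dim in A549 and not in H441, FOXA2 was above the median on all 4 arrays, and SFTPC reached it on the A549 siNTC array alone. Of 4 leukocyte markers only CD68 reached the median, on every array, and of 4 endothelial markers only KDR, in H441. Of 5 fibroblast markers, 1 (COL1A1) reached it in A549, 3 on the H441 siNTC array (COL1A1, COL3A1 and LUM) and 4 on the H441 siTAZ array (COL1A2 as well). The part of these in any result was not tested.

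On the deposited scale the lines differed by more than the siRNAs did for each tested member, least clearly for EREG and EGFR, and for EGFR not after quantile normalization. EREG, TGFA, HBEGF, BTC, EGFR, ERBB2 and ERBB3 had higher signals in H441, NRG1 had a higher signal in A549, and EPGN and ERBB4 were dim on all 4 arrays. After siTAZ, EREG and NRG1 were lower in A549 with little or opposite difference in H441, and EGFR was slightly lower in both lines. No member passed the test for siTAZ over both lines. Since these are bulk arrays, fewer expressing cells and less RNA per cell cannot be told apart.

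**Figure D1:**
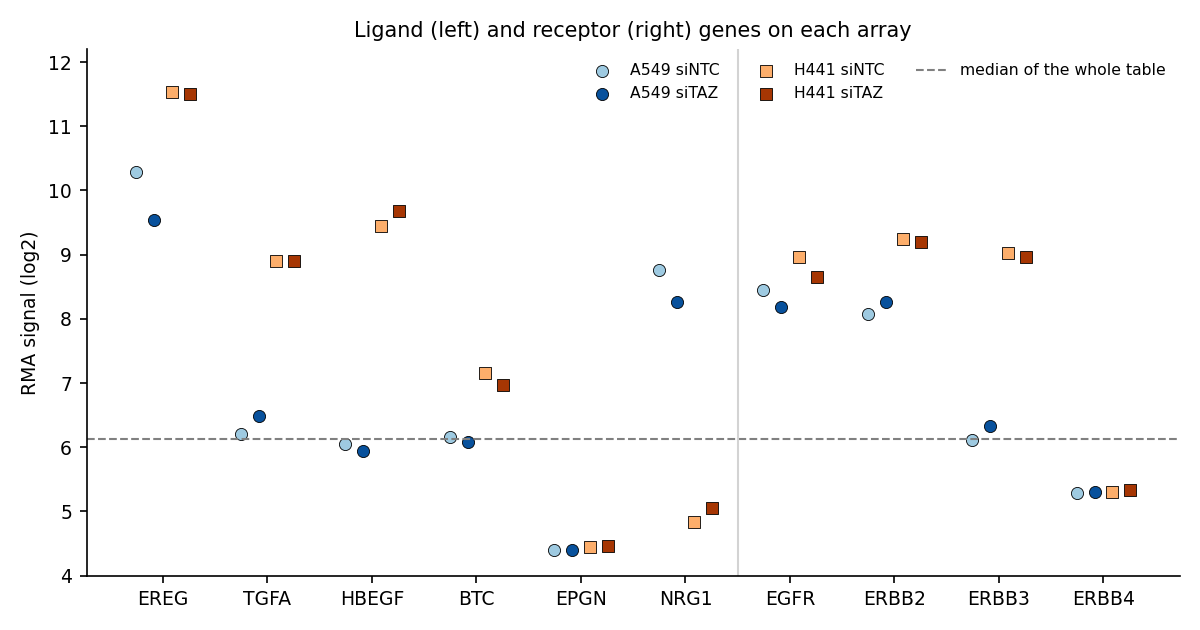
RMA signal in log2 units (y axis) of each family member (x axis) on the 4 arrays, 1 point per array with no replicates. The dashed line is the table median of 6.13. NRG1 points lie above it in A549 and below it in H441, and those of HBEGF the other way round.

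EREG encodes epiregulin, a ligand of EGFR and ERBB4. In A549 it gave 10.29 with siNTC and 9.55 with siTAZ, and in H441 11.53 and 11.50. Both A549 values lay below both H441 values, and the A549 siTAZ array was the lowest of the 4. The A549 difference of -0.74 was a 1.67-fold lower signal, which left 59.9% of the control. It was the 60th lowest of 11405 genes counted in A549. The H441 difference was -0.03, or 97.7% of the control. Depending on the scaling of the arrays it ran from -0.12 to 0.04, so it had no settled direction.

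The fit over both lines was made with limma on 12740 genes with the cell line as a block. It averages the differences of the lines, so a gene that moves in 1 line alone is hard to call. Its single residual degree of freedom is the disagreement between the lines, and most of its error estimate comes from a prior over all genes. For EREG the mean difference was -0.39 ± 0.14 (limma SE, 2 lines) with an interval of -0.67 to -0.10 at 95% confidence, and the limma adjusted p was 0.16. Of all tested genes, 2.47% passed at an adjusted p under 0.05, 1.19% higher and 1.29% lower. With a prior variance that follows the mean signal, which raised the calls over all genes from 315 to 594, EREG passed (limma adjusted p = 0.00405). Under the other alternatives its limma adjusted p ran from 0.0547, after median centring, to 1, without the cell line in the fit, so its call depends on how the spread was estimated. Read from the brightest probe set of each gene, EREG alone reached 1.5-fold in A549, 1 of 7 counted members. Of all genes counted there, 1.07% were at least 1.5-fold lower. The second NRG1 probe set, not the one counted, was also past 1.5-fold lower in A549 (-0.61). In H441, 0 of 7 counted members reached 1.5-fold lower, against 0.974% of genes. No member was at least 1.5-fold higher in either line, as 1.76% of genes were in A549 and 0.479% in H441.

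The bases upstream of the EREG start are shown because EREG had the largest siTAZ difference of the family, and those of EGFR because its difference was nearly the same in both lines. They are the 250 bases before the RefSeq start on build GRCh38.p14, plus strand, on chromosomes 4 and 7. The searched motifs were GGAATG, the core to which TEAD factors bind, and TGANTCA, an AP-1 site with any base at N, on both strands. Matches were allowed to overlap, and those shown do not. Capitals mark the matches.
EREG, chr4:74364895-74365144: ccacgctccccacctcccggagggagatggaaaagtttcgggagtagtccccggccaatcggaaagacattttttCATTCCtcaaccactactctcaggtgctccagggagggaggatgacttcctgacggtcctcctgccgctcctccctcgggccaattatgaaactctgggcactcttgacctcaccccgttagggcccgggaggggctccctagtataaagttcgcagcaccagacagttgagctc
EGFR, first start, chr7:55018767-55019016: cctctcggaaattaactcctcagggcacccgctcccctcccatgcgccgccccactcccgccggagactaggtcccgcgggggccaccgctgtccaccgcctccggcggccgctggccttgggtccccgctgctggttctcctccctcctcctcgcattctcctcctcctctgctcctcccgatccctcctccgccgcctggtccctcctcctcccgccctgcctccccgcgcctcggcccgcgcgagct
EGFR, second start, chr7:55109589-55109838: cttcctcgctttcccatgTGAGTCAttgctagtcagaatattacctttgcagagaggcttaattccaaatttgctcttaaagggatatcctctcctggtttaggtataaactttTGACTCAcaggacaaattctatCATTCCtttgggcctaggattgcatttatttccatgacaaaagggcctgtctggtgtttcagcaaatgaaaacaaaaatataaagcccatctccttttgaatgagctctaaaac
The EREG window holds 1 match to GGAATG, read on the minus strand as CATTCC, from -175 to -170 relative to the start. The window of the first EGFR start holds neither motif, and that of the second holds CATTCC from -114 to -109 with TGAGTCA from -232 to -226 and TGACTCA from -136 to -130. Among 10 windows of the 8 members in the promoter table that were searched, 2 held GGAATG and 2 held TGANTCA. NRG1 was left out of the search, and ERBB3 had no entry. In all 35116 windows of that length, 11.9% held GGAATG and 6.57% held TGANTCA. The second EGFR start lies downstream of the first, and which of them these cells use was not measured. A match here is a description of the letters, and binding was not measured.

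TGFA, HBEGF and BTC encode further EGFR ligands, of which HBEGF and BTC also bind ERBB4. TGFA was 6.21 (siNTC) and 6.49 (siTAZ) in A549, and 8.89 and 8.91 in H441. It was thus just above the table median in A549 and clearly above it in H441, with differences of 0.28 and 0.01, the latter between -0.07 and 0.05 depending on the scaling. HBEGF was 6.06 and 5.94 in A549, dim on both arrays, and 9.45 and 9.68 in H441, where the difference was 0.23. BTC was 6.16 and 6.08 (dim) in A549 and 7.16 and 6.96 in H441, with differences of -0.08 and -0.20. None of these passed over both lines, and their limma adjusted p-values were 0.67 for TGFA, 0.90 for HBEGF and 0.69 for BTC. The mean differences were 0.15 for TGFA (interval -0.10 to 0.40), 0.06 for HBEGF (-0.20 to 0.31) and -0.14 for BTC (-0.38 to 0.10), so shifts inside these bounds remain possible.

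EPGN encodes epigen, an EGFR ligand. Its signal was 4.41 on both A549 arrays, and 4.45 and 4.46 in H441. It lay in the lowest 1% of genes on every array and did not enter the test.

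NRG1 encodes the neuregulin ligand of ERBB3 and ERBB4. In A549 it gave 8.76 with siNTC and 8.26 with siTAZ, and in H441 4.84 and 5.05, dim on both arrays. The A549 difference of -0.50 was a 1.42-fold lower signal and the 197th lowest of 11405 genes. The second NRG1 probe set gave the same directions, with 8.19 and 7.58 in A549 and 4.90 and 4.95 in H441. Its differences were -0.61 in A549, at least 1.5-fold lower, and 0.05 in H441. Over both lines the mean was -0.15 ± 0.14 (limma SE, interval -0.43 to 0.14, limma adjusted p = 0.72).

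EGFR, the receptor of most of these ligands, was 8.46 (siNTC) and 8.18 (siTAZ) in A549, and 8.97 and 8.65 in H441. The siTAZ array was the lower one in each line. The differences of -0.27 and -0.32 left 82.7% and 79.9% of the control signal, and they were the closest pair of responses among the tested members, 0.05 apart. They ranked 909th lowest of 11405 genes in A549 and 826th lowest of 11911 in H441. Over both lines the mean was -0.30 ± 0.12 (limma SE, interval -0.54 to -0.06). The unadjusted limma p was 0.018, and the adjusted p of 0.22 missed the threshold, as it did under every alternative (0.131 to 1). EREG and EGFR were the only members with an unadjusted limma p under 0.05, 2 of 8 tested, where 13.2% of all genes had one.

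ERBB2, the co-receptor without a ligand, was 8.07 (siNTC) and 8.26 (siTAZ) in A549, and 9.25 and 9.19 in H441. ERBB3, the neuregulin receptor, was 6.11 (dim) and 6.33 in A549 and 9.03 and 8.96 in H441. The siTAZ array was the higher one in A549 and the lower one in H441 for both genes, with differences of 0.19 and -0.06 for ERBB2 and 0.22 and -0.07 for ERBB3. Neither passed over both lines (limma adjusted p = 0.88 and 0.87). The intervals were -0.18 to 0.32 for ERBB2 and -0.18 to 0.32 for ERBB3. ERBB4, the other neuregulin receptor, was dim on all arrays, at 5.28 and 5.30 in A549 and 5.30 and 5.34 in H441, and did not enter the test.

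**Figure D2:**
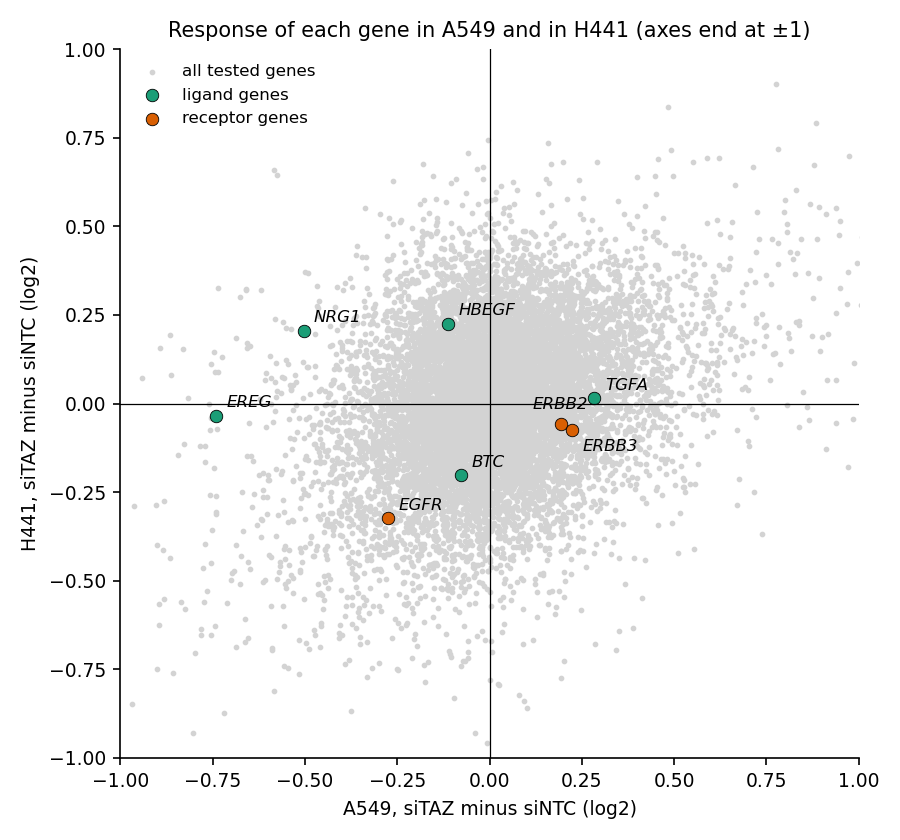
Difference between siTAZ and siNTC in log2 units in A549 (x axis) and in H441 (y axis) for the 8 tested members and all 12740 tested genes (grey), 1 array per group. EREG and NRG1 lie far to the left near or above the horizontal axis, while EGFR lies below 0 on both axes; 52 genes fall outside the axes.

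Of the 7 members counted in A549, 4 were lower and 3 higher, with a median of -0.08, while all counted genes had a median of 0.01 and 48.4% were lower. In H441, 5 of 7 were lower, with a median of -0.06, while all counted genes had a median of 0.0048 and 48.8% were lower. Over both lines the median of the 8 tested members was -0.04 and that of all tested genes 0.01. Of the 8, 4 had opposite signs in the 2 lines, as did 41.1% of all tested genes. In H441 the signs of EREG and TGFA turned with the scaling of the arrays, so the H441 count and the count of opposite signs are not settled.

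The levels in the lines were then compared through the cell line term of the same fit, A549 minus H441, with the siNTC and siTAZ arrays of a line as its repeats. These p-values cover only the spread between such arrays of 1 line each. The scale of the lines also differed: the 90th percentile of the signal was 9.19 on both A549 arrays and 9.60 and 9.56 on those of H441. Values identical on both arrays of a line occurred in 757 probe sets in A549 and 555 in H441, but in none between arrays of different lines. No source used here says whether the lines were normalized in separate runs. Over all tested genes the median of A549 minus H441 was -0.31, and 0 after quantile normalization of the 4 arrays, so each log2 difference below is followed by its quantile-normalized one. Folds and percentiles below come from the deposited scale alone. A fold against a dim signal may understate the gap, as for NRG1 in H441, HBEGF in A549 and ERBB3 with siNTC in A549. Of all tested genes, 71.9% passed and the arrays of the lines did not overlap for 83.8%. Genes higher in A549 were 19.0% of those tested and genes higher in H441 52.8%. The share of calls higher in A549 was 26.5%, and 49.6% after quantile normalization. All 8 tested members passed, 1 higher in A549 and 7 higher in H441, which must be read against these shares. NRG1 and HBEGF entered the fit only through the line where they were bright, since genes dim on all arrays were not tested. Their p-values for the lines are thus no separate support for a gap.

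NRG1 had the largest excess in A549 of the family. Its A549 minus H441 difference was 3.57 ± 0.14 (limma SE, limma adjusted p = 5.5e-17), or 3.83 after quantile normalization. With siNTC the A549 signal was 15.2-fold that of H441, and with siTAZ it was 9.28-fold. Among all genes of an array NRG1 stood at percentile 83.0 and 75.8 in A549 and at 9.34 and 13.3 in H441.

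HBEGF had the opposite order, with -3.57 ± 0.12 (limma adjusted p = 4.9e-18), or -3.30 after quantile normalization. The H441 signal was 10.5-fold higher with siNTC and 13.3-fold higher with siTAZ. ERBB3 followed with -2.77 ± 0.12 (limma adjusted p = 5.9e-16; quantile-normalized -2.49), and was 7.58-fold higher in H441 with siNTC. TGFA had -2.55 ± 0.12 (limma adjusted p = 2.7e-15; quantile-normalized -2.26), a 6.43-fold higher H441 signal with siNTC. These 4 genes, NRG1 included, were at least 4-fold apart between the lines, as were 6.27% of all tested genes. The line with the higher NRG1 signal had the lower signal of ERBB3, a receptor for its product.

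EREG had -1.60 ± 0.14 (limma adjusted p = 2.9e-10; quantile-normalized -1.20). Its H441 signal was 2.37-fold higher with siNTC and 3.86-fold higher with siTAZ. ERBB2 had -1.05 ± 0.12 (limma adjusted p = 3.2e-08; quantile-normalized -0.67) and BTC -0.94 ± 0.12 (limma adjusted p = 1.4e-07; quantile-normalized -0.74). EGFR had the smallest gap, -0.49 ± 0.12 (limma adjusted p = 0.00067), and its call did not hold after quantile normalization (-0.10, adjusted p = 0.44) or cyclic loess (-0.11, adjusted p = 0.38). Among all genes of an array EGFR stood at percentile 78.8 and 74.5 in A549 and at 80.3 and 76.0 in H441, so its place overlapped between the lines.

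**Figure D3:**
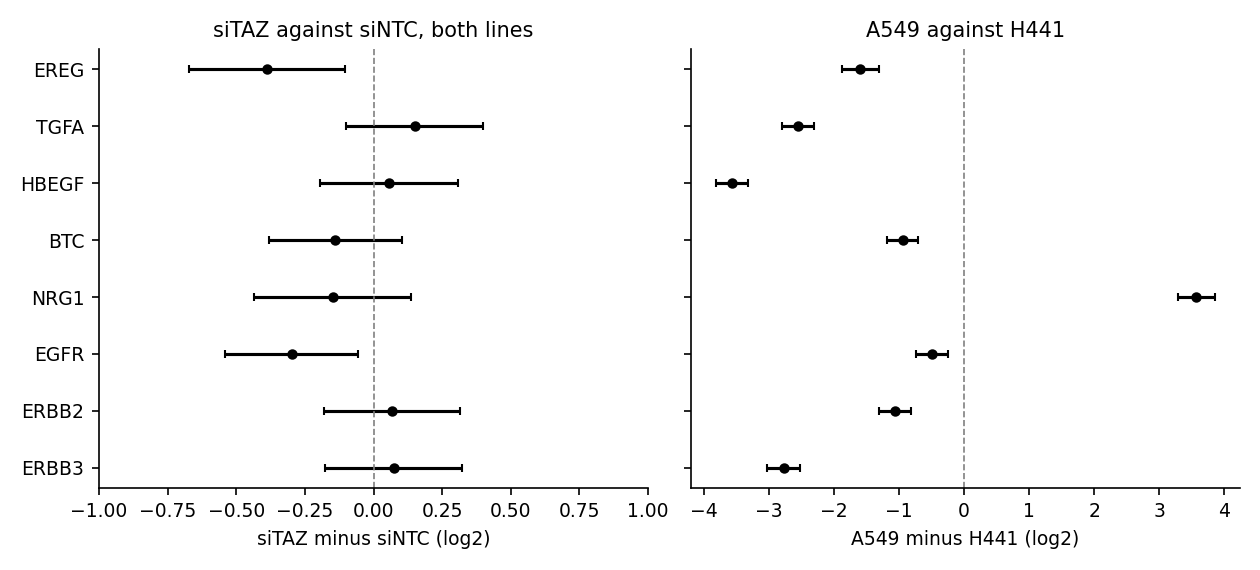
Estimates (points) and intervals at 95% confidence (bars) from the limma fit in log2 units for the 8 tested members: siTAZ minus siNTC over both lines (left) and A549 minus H441 (right), on different x scales. On the left the intervals of EREG and EGFR alone exclude 0, without passing after adjustment; on the right NRG1 alone lies above 0.

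Genes that act on or after the receptors were read from 8 lists of the pathway, 95 genes in all with shared ones counted once, of which 84 had a probe set with a single symbol and 82 were tested. Of the 82, 1 rose and 4 fell over both lines, where 1.19% and 1.29% of all genes did. An unadjusted limma p under 0.05 was reached by 18, where 13.2% of all genes had one. The lists' medians over both lines ran from -0.06 to 0.14, with 0.01 for all tested genes. Each of the 5 calls was lost after cyclic loess, which left 20 calls over all genes.

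LRIG1, a membrane protein that promotes the degradation of EGFR family receptors, was the gene that rose. It was 6.92 (siNTC) and 7.41 (siTAZ) in A549, and 7.01 and 7.73 in H441, with siTAZ the higher array in each line. The mean difference was 0.60 ± 0.12 (limma SE, limma adjusted p = 0.0049; 0.080 after cyclic loess). It was 1 of 17 tested negative regulators. In this list 9 of 16 counted genes were lower in A549 and 11 of 17 in H441, with medians of -0.02 and -0.08. SPRED1, an inhibitor of RAS-MAPK signalling, had differences of 0.27 and 0.48 (limma adjusted p = 0.11). SPRY4, a Sprouty inhibitor, had 0.07 and 0.60 (limma adjusted p = 0.20). LRIG2, a relative of LRIG1, had -0.15 and -0.37 (limma adjusted p = 0.32).

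Among 8 tested genes of ligand shedding and maturation, ADAM9, a membrane metalloprotease, fell. It was 11.94 and 11.49 in A549 and 12.03 and 11.45 in H441, with siTAZ the lower array in each line. The mean was -0.52 ± 0.12 (limma adjusted p = 0.016; 0.0502 after quantile normalization, 0.073 without the filter on dim genes and 0.12 after cyclic loess). ADAM10, a sheddase of this ligand family, had -0.49 in A549 and -0.09 in H441 (limma adjusted p = 0.29). FURIN, a proprotein convertase, had 0.20 and 0.26 (limma adjusted p = 0.40), and ADAM12, another metalloprotease, had -0.34 and 0.10 (limma adjusted p = 0.77). In A549, 6 of 7 counted genes of this list were lower, with a median of -0.14, and in H441 4 of 7, with -0.03.

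Among 14 tested adaptors, PTPN11, which encodes the phosphatase SHP2 that links receptors to RAS, fell. It was 10.51 and 10.05 in A549 and 11.32 and 10.81 in H441, a mean of -0.49 ± 0.12 (limma adjusted p = 0.023; 0.064 after quantile normalization, 0.082 without the filter and 0.13 after cyclic loess). SHC1, an adaptor that binds phosphorylated receptors, had 0.48 and 0.31 (limma adjusted p = 0.081). GAB1, a docking protein, had 0.56 and 0.22 (limma adjusted p = 0.096), and NCK1, an SH2 adaptor, had -0.29 and -0.37 (limma adjusted p = 0.16). The list's counted genes were divided between directions, with 6 of 14 lower in A549 and 8 of 14 in H441.

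Among 17 tested genes known to respond to ERK signalling, CCND1 and FOSL1 fell. FOSL1, an AP-1 factor, was 7.71 and 7.32 in A549 and 10.19 and 9.46 in H441, a mean of -0.56 ± 0.12 (limma adjusted p = 0.011; 0.077 without the filter and 0.12 after cyclic loess). CCND1, cyclin D1, was 10.22 and 9.47 in A549 and 10.71 and 10.45 in H441, a mean of -0.50 ± 0.13 (limma adjusted p = 0.032; 0.14 after quantile normalization, 0.15 without the filter and 0.25 after cyclic loess). In H441 12 of 17 members of this list were higher all the same, with a median of 0.16, and in A549 6 of 17, with a median of -0.05. EGR1, an immediate early factor, had -0.09 in A549 and 0.63 in H441 (limma adjusted p = 0.41), and EPHA2, an ephrin receptor, had -0.30 and -0.41 (limma adjusted p = 0.12). SPRED1 and SPRY4 belong to this list as well.

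In the other lists limma called 0 genes over both lines. Among 12 tested genes of endocytosis and sorting, 1 had an unadjusted p under 0.05: USP8, a deubiquitinase of sorting endosomes, with -0.21 and -0.72 (limma adjusted p = 0.054). STAM2 had 0.27 and -0.13 and EPS15 0.13 and -0.25, both parts of endosomal or coated-pit sorting. Of 9 tested genes of the RAS-MAPK chain, 0 had an unadjusted p under 0.05, and NF1, a RAS inactivator, had 0.53 and -0.02. MAP2K2, a MEK kinase, had -0.13 and 0.28, and KSR1, a scaffold of the chain, 0.14 and 0.27. Of 6 tested genes of the PI3K-AKT chain, 2 had one: PIK3CB, a catalytic subunit, with -0.28 and -0.35, and AKT1, with 0.31 and 0.32 (limma adjusted p = 0.18 and 0.19). PIK3R1, a regulatory subunit, had 0.40 and -0.02. Of the 3 tested further ligands 0 had one; EGF had 0.14 and 0.23, NRG2 0.22 and 0.05 and NRG4 0.0083 and -0.05. EGF was dim on all arrays but H441 siTAZ, where it was just above the table median (6.14), and NRG4 was dim in H441.

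**Figure D4:**
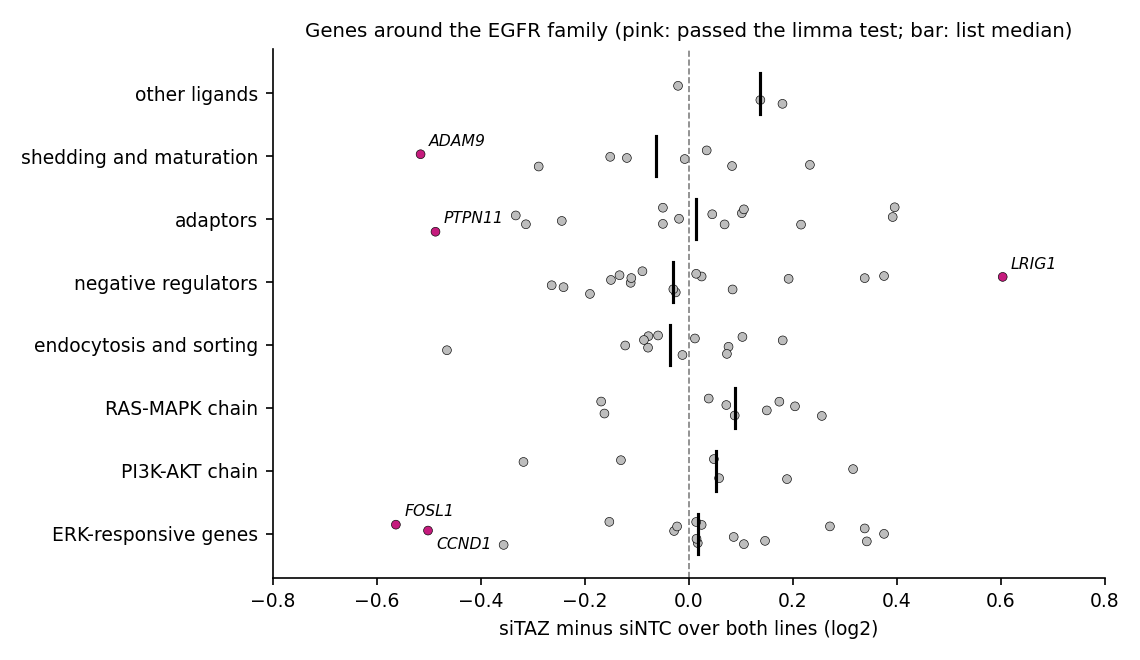
Mean difference between siTAZ and siNTC over both lines in log2 units (x axis) for the tested genes of each pathway list (rows, vertical scatter is random). Pink points passed the limma test, and the black bar is the list's median. LRIG1 lies at 0.60, and ADAM9, PTPN11, FOSL1 and CCND1 lie between -0.56 and -0.49.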

How the data were processed

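Per the submitters' processing notes, the authors used RMA, with no version or genome build stated in the sources used here. The deposited signals of 28869 probe sets run from 4.20 to 14.83 and were read as log2. Of these, 19310 had 1 gene symbol in the platform annotation, 1752 several and 7807 none. Entrez identifiers of 19279 matched the GRCh38.p14 gene table. For 685 genes with several probe sets the brightest was used.

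Within a line, a gene was counted where its higher array reached the table median (11405 genes in A549, 11911 in H441), with no test. Over all 4 arrays, limma 3.58.1 in R 4.3.3 (two-sided, Benjamini-Hochberg over 12740 genes whose highest value reached that median, call under 0.05) fitted cell line and siRNA, with a prior worth 22.3 degrees of freedom. The SE is thus mostly the prior's. The response of the lines could not be tested against each other. Precision is limited by 1 array per group.

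The members, lists and tests were chosen with earlier results of these data known. Named genes were the members, WWTR1, and per pathway list every call and up to 3 further genes with the largest mean absolute difference. Markers of cell type came from fixed lists. For EGFR and EREG, the 3 genes with the nearest profile were named as well. The 8 alternatives were median centring, quantile normalization, cyclic loess, no filter, a filter on the mean, the mean of probe sets, no cell line and a trended prior. On simulated arrays the siTAZ fit of 12740 genes recovered 96% of 200 genes shifted by 0.6 in both lines and 100% of those shifted by 1, beside 13 and 11 false calls. With no shift it called 0 genes. The simulated noise was normal and alike for every gene, and the shifts were equal in both lines. These rates therefore need not hold for the real arrays. Promoter sequences are RefSeq's. Those of 8 members were searched, without NRG1, which was left out, and ERBB3, which had no entry.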

Additional observations from a re-analysis of the deposited data

Results flagged for a closer look

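For HBEGF, NRG1, ERBB2 and ERBB3 the siTAZ difference had opposite signs in A549 and H441. The difference between the lines' responses was not tested, since 4 arrays leave no degree of freedom for it. The A549 difference minus the H441 difference was -0.71 for NRG1 and -0.34 for HBEGF. It was 0.25 for ERBB2 and 0.30 for ERBB3. The other tested members had the same sign in both lines on the deposited scale and were not flagged. Their values were -0.71 for EREG, 0.27 for TGFA, 0.12 for BTC and 0.05 for EGFR. NRG1 was dim in H441 and HBEGF was dim in A549, so 1 side of each of these pairs is a dim signal. ERBB3 was dim on the A549 siNTC array, so its A549 difference starts from a dim signal too.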

How the results depend on the processing

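Of the single-gene values recomputed under the alternatives, 346 kept their direction and side of the threshold or moved by less than the fit's SD, 20 lost a call and 1 gained one. The gain was EREG with a trended prior. The count of genes called for siTAZ over both lines was 315. It was 146 after quantile normalization, 20 after cyclic loess, 92 without the filter and 594 with a trended prior. With siRNA as the only term limma called 0 genes, so that WWTR1 lost its call too, and 11 genes had an unadjusted p under 0.05. Median centring changed the split: the calls were 123 higher and 277 lower, beside 151 and 164 as reported. Members called for siTAZ over both lines were 0 under every alternative but the trended prior, which called 1. Members called for A549 against H441 were 7 after quantile normalization or cyclic loess and 8 under the other alternatives that give this contrast. The members tested were 8, or 10 without the filter. Cell line as the block pairs siTAZ with siNTC, and the fit with siRNA alone is the one without that pairing. Each group is 1 array, so no replicate could be left out.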

Other observations

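EREG lies on chromosome 4 between EPGN and AREG, with BTC beyond AREG and a run of CXCL chemokine genes before EPGN. The 12 protein-coding genes before it and the 6 after it in the gene order were read after the values were seen, and 17 had a probe set. Of the 10 counted in A549, 7 were lower, beside 48.4% of all genes counted there. In A549 the difference was -0.74 for CXCL1, -0.56 for CXCL2, -0.48 for CXCL8, -0.29 for CXCL3 and -0.17 for CXCL5. PF4V1, a platelet factor gene in the same run, had 0.27. The genes on the other side had -0.08 (BTC), 0.28 (PARM1), 0.09 (RCHY1) and -0.16 (THAP6). In H441 the chemokine genes had 0.33 for CXCL1, -0.27 for CXCL2, -0.06 for CXCL8 and 0.08 for CXCL3. None of these genes was called by limma over both lines (adjusted p from 0.071 for CXCL2 to 0.92 for CXCL5). CXCL1, CXCL2 and CXCL3 are closely related genes, so their probe sets may share signal, which was not tested.

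Profiles over the 4 arrays, each minus its own mean, were compared by Euclidean distance in log2 units. The nearest to EGFR were ZC3H11A (distance 0.018), FJX1 (0.037) and POMGNT1 (0.040). The differences in A549 and H441 were -0.26 and -0.33 for ZC3H11A, -0.30 and -0.36 for FJX1, and -0.24 and -0.31 for POMGNT1. Those of EGFR were -0.27 and -0.32. The nearest to EREG were farther away: RPRD1B (0.15), ZCCHC17 (0.23) and FRRS1 (0.25). With 4 arrays such nearness is a description and says nothing of shared control.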
